A study of Homo sapiens with 4 samples.

Results

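The 10 genes described here make, bind or break down hyaluronan, or encode chondroitin sulphate proteoglycans. They were chosen by gene name out of 58735 genes in the deposited files, and each name matched 1 gene. The hyaluronan synthases were HAS2 and HAS3, the receptor was CD44, the proteoglycans were VCAN, BCAN, NCAN and CSPG4, and the hyaluronidases were HYAL1, HYAL2 and CEMIP. U251 and U87 are established human glioblastoma (GBM) cell lines, and RNA of each line was read from 1 Control library and from 1 library of cells kept for 48 h in brusatol (Bru) at the IC50. Bru is a quassinoid from Brucea fruit that is used to block NRF2 and also inhibits protein synthesis. The labels name no vehicle for the Control libraries. Thus 4 libraries were compared, each condition had 1 library, and no difference below has a replicate check.

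Hyaluronan is a long unsulphated sugar chain that fills much of the space between brain cells. The HAS enzymes build it at the plasma membrane from UDP-glucuronic acid and UDP-N-acetylglucosamine and push it out of the cell. Lecticans such as versican, brevican and neurocan bind it through their N-terminal globular domain and carry chondroitin sulphate, whereas CD44 holds it at the cell surface and is linked to actin by ezrin, radixin and moesin. Gliomas are known for a matrix rich in hyaluronan and for high CD44 in their mesenchymal form.

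The authors deposited FPKM, fragments per kilobase of gene scaled to a size of the library. FPKM multiplied by gene length gave back whole fragments, called reads here, which added up to between 17083896 and 21453561 per library. The size used in the FPKM differed from this total. As a fraction of it, the size was 0.978 for Control and 1.04 for Bru of U251, and 0.990 and 1.02 for those of U87. With reads scaled by their total, the log2 ratio of Bru to Control in U251 was -0.08 instead of -0.16 for VCAN. For CD44 it was -0.32 instead of -0.41. Mitochondrially encoded genes took 2.43% to 4.06% of the reads. The intermediate filament VIM had an FPKM of 606 to 701 in all 4 libraries. SOX2 and NES, markers of neural progenitors, were at 91.2 to 129 and 50.6 to 125 in U251, but SOX2 was at 0 to 0.0457 and NES at 0.569 to 1.46 in U87, and the astrocyte marker GFAP was at or below 2.42 in every library. OLIG2 went the other way, at 0.0284 and 0.0644 in U251 and at 0.627 and 1.05 in U87. NCAM1 was at 4.05 to 7.47 and S100B at or below 0.296 in all 4 libraries. Of the markers of other cells, the highest was the epithelial keratin KRT18, at 9.67 and 14.3 in U251. The others, PTPRC, CD68, AIF1, PECAM1, CDH5 and EPCAM, lay at or below 0.506. Intervals below are 95% exact intervals of counting error, and the reads carry no molecular identifiers. A difference between libraries cannot be told apart from a difference between conditions. In bulk RNA, fewer cells that express a gene and less RNA per cell cannot be told apart either.

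CD44 was by far the most abundant of the genes per kilobase, with 58.5% to 81.3% of their summed FPKM. In U251 Control it was followed by VCAN, HAS2, HYAL2 and HAS3, then BCAN, CEMIP, CSPG4, HYAL1 and NCAN. HYAL2 and HAS3 had overlapping intervals there, as did CSPG4 and HYAL1, and HYAL1 and NCAN. In U87 Control the order was CD44, CSPG4, VCAN, HYAL2, CEMIP and HAS2, then BCAN, HAS3, HYAL1 and NCAN. BCAN and HAS3 overlapped, as did HAS3 and HYAL1. In U251 Bru HAS2 lay below BCAN, with intervals that did not overlap, so that its place moved from the third to the sixth. In U87 Bru the order of the genes equalled that of U87 Control.

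**Figure D1:**
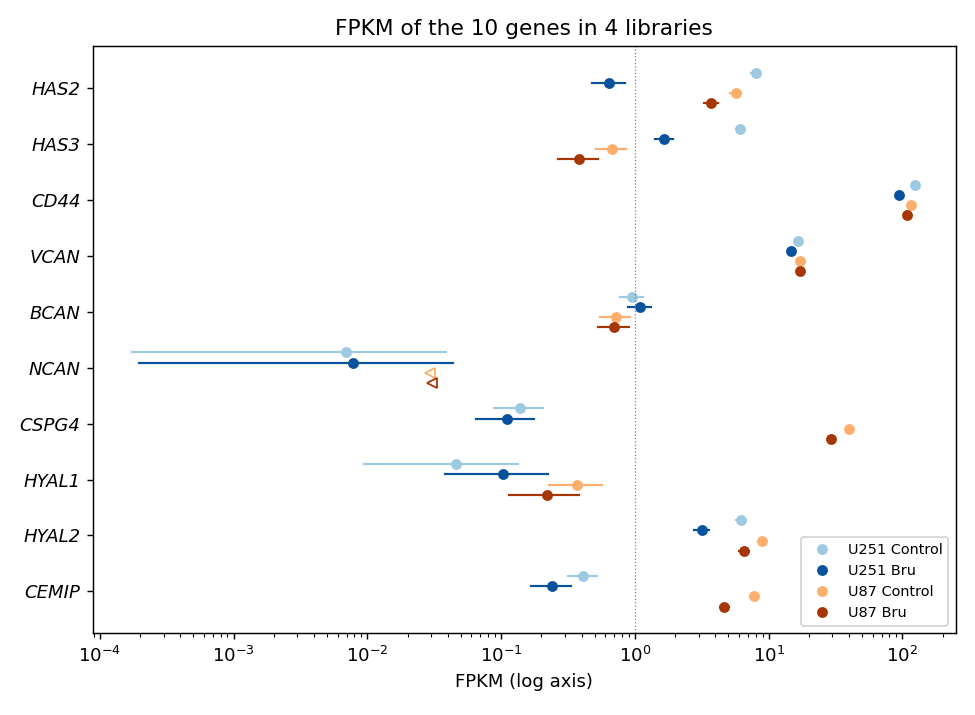
FPKM of each gene on a log axis in the 4 libraries, with 95% exact Poisson intervals of the reads as lines, 1 library per point. Open triangles mark the upper limit of NCAN, which had 0 reads in U87, and the dotted line is the minimum mean FPKM of 1. CD44 lies between 94.5 and 125 in every library, and CSPG4 is the gene whose points for U251 and U87 lie farthest apart.

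Changes are given as the log2 ratio on FPKM + 0.1, which understates the change of low genes, and a gene counted as changed when the ratio passed 2-fold, a log2 ratio above 1 or below -1. Counted were the 12949 genes whose FPKM averaged 1 or more across the libraries. Of the 10 genes, 7 passed that filter, and HYAL1, BCAN and NCAN did not. CSPG4 and CEMIP passed through their level in U87 alone, and HAS3 through its level in U251. Of the 7 genes, 2 fell past 2-fold and 0 rose in U251, where 5.44% of all genes fell, 3.36% rose and 8.80% did either. In U87, 0 of 7 passed 2-fold in either direction, where 3.34% of all genes did (1.92% higher and 1.41% lower). The median of their log2 ratios was -0.59 for U251 and -0.46 for U87, and the median of all 12949 genes was -0.03 and -0.04. Over all 10 genes, without the filter, the median was -0.29 in U251 and -0.44 in U87. All 7 had a ratio below 0 in U251 and 6 in U87, where 52.1% and 56.7% of all genes did, and 6 were below 0 in both lines, beside 37.5% of all genes. CSPG4 was counted in U251 on 24 and 17 reads, with an interval that included 0. Below the filter, HYAL1 and BCAN had ratios of 0.48 and 0.19 in U251 and of -0.56 and -0.03 in U87. NCAN had at most 1 read per library. The response of U87 minus that of U251 passed 2-fold in 2 of the 7 genes, HAS2 and HAS3, both upward, beside 8.49% of all genes (5.11% upward and 3.37% downward).

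The 2 hyaluronan synthases were the genes that fell past 2-fold in U251. HAS2 (ENSG00000170961, chromosome 8 of GRCh38 from 121612116 to 121641390, minus strand) encodes the synthase of very long hyaluronan. Its FPKM stood at 7.99 without and 0.644 with Bru in U251 (702 and 50 reads), and at 5.69 without and 3.74 with Bru in U87 (431 and 273 reads). U251 Bru was far below the other 3 libraries, none of whose intervals reached its own. The log2 ratio of HAS2 was -3.44 in U251, at rank 25 from the lowest of the 12949 genes. Without a pseudocount this was 8.06% of Control, a log2 ratio of -3.63 (interval from -4.08 to -3.22). In U87 its log2 ratio was -0.59 (-0.60 without a pseudocount, interval from -0.83 to -0.38), so that the counting interval lay within 2-fold. The response of U87 minus that of U251 was 3.03 on the log2 scale, with an exact conditional interval of the reads from 2.55 to 3.53.

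HAS3 (ENSG00000103044, chromosome 16 from 69105564 to 69118719, plus strand) encodes a synthase that makes shorter chains. In U251 it stood at an FPKM of 6.13 without and 1.65 with Bru (680 and 162 reads), and in U87 at 0.670 without and 0.380 with Bru (64 and 35 reads). Both U87 libraries lay below both U251 libraries. HAS3 fell in U251 to 27.0% of Control, a log2 ratio of -1.83 (-1.89 without a pseudocount, interval from -2.15 to -1.64). In U87 the log2 ratio was -0.68 (-0.82 without a pseudocount, interval from -1.45 to -0.20), and this interval reached past 2-fold. The difference between the lines was 1.07 (interval from 0.38 to 1.74).

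HAS1, the third synthase and not among the 10 genes, had 1 read without and 4 with Bru in U251, against 151 and 124 in the U87 libraries. Summed over the 3 synthases, the FPKM went from 14.1 to 2.39 in U251, 16.9% of Control, and from 10.1 to 7.30 in U87, 72.4% of Control. HAS2 gave 56.5% of this sum in U251 Control and 26.9% in U251 Bru, where HAS3 gave 69.1%. In U87 the make-up differed less between the libraries, with HAS2 at 56.4% and 51.3%, HAS1 at 37.0% and 43.5% and HAS3 at 6.64% and 5.21%. HAS2 thus held a similar share in both Control libraries, while its partner was HAS3 in U251 and HAS1 in U87. HAS2-AS1, the antisense transcript of the HAS2 locus, had 10 reads without and 0 with Bru in U251, and 19 and 26 in U87. It shares 201 exon bases with HAS2, 4.80% of the exon bases of HAS2. HAS3 shares 365 exon bases with CHTF8 on the other strand. The sources used here do not state whether reads were counted by strand, so reads over these bases cannot be told apart.

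**Figure D2:**
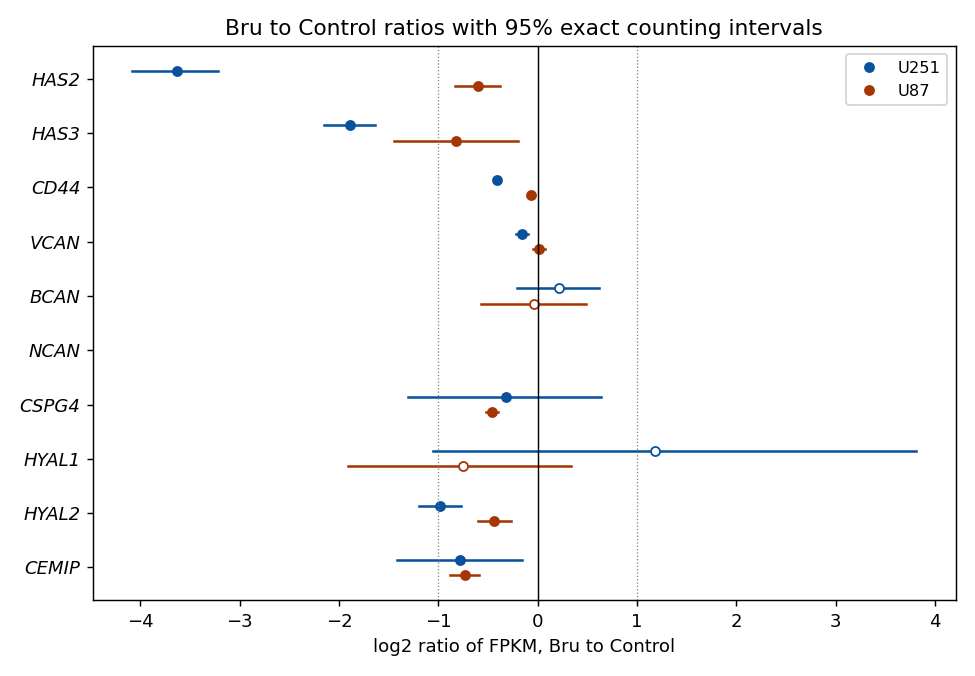
Log2 ratio of FPKM, Bru to Control, without a pseudocount, for each gene in U251 and U87, with 95% exact intervals of counting error and dotted lines at 2-fold. Open symbols are genes under the filter, and NCAN, with 0 or 1 read per library, is left out. HAS2 and HAS3 in U251 lie at -3.63 and -1.89 with intervals wholly past 2-fold.

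**Figure D3:**
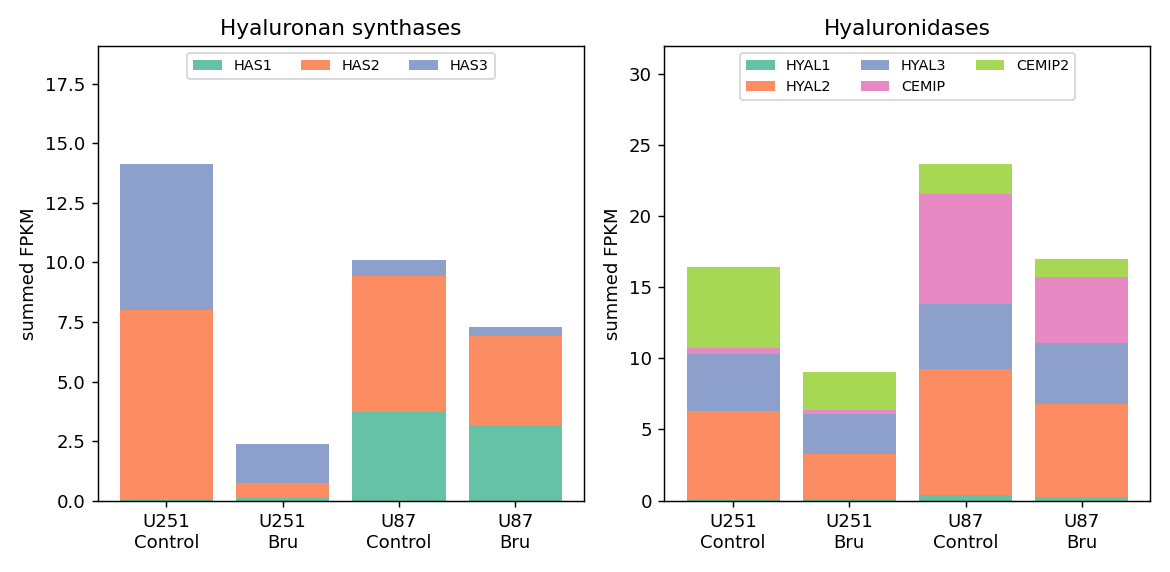
Summed FPKM of the 3 hyaluronan synthases and of 5 hyaluronidases in each of the 4 libraries, stacked by gene, 1 library per bar. The synthases add up to 14.1, 2.39, 10.1 and 7.30 from left to right, and the hyaluronidases to 16.4, 9.06, 23.7 and 17.0.

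CD44 (ENSG00000026508, chromosome 11 from 35138870 to 35232402, plus strand), the main hyaluronan receptor, had an FPKM of 125 without and 94.5 with Bru in U251 (26325 and 17528 reads), and of 115 without and 109 with Bru in U87 (20724 and 19043 reads). The lowest and the highest library were both of U251, and the U87 libraries lay between them. Its log2 ratio was -0.41 in U251 (interval from -0.44 to -0.38) and -0.07 in U87 (interval from -0.10 to -0.04), both within 2-fold. Because of its depth these intervals are narrower than the effect of scaling, and over 5 other scalings the ratio ran from -0.38 to -0.32 in U251 and from -0.07 to -0.01 in U87. The difference between the lines was 0.34 (interval from 0.30 to 0.38). The files hold 1 value per gene, so splice forms of CD44 were not analysed here.

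Of the 3 lecticans, VCAN was the abundant one. VCAN (ENSG00000038427, chromosome 5 from 83471465 to 83582303, plus strand) encodes versican, a large chondroitin sulphate proteoglycan of the provisional matrix. Its FPKM was 16.5 without and 14.7 with Bru in U251 (5135 and 4051 reads), and 17.1 without and 17.3 with Bru in U87 (4595 and 4468 reads). Only U251 Bru stood below the rest, and by little. The log2 ratio was -0.16 in U251 (interval from -0.22 to -0.10) and 0.01 in U87 (interval from -0.05 to 0.07), and in U87 no difference was detectable at this depth. Other scalings gave VCAN ratios from -0.14 to -0.08 in U251, and -0.08 lies outside the counting interval. VCAN made up 93.0% to 96.1% of the summed FPKM of VCAN, BCAN, NCAN and ACAN in the 4 libraries.

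BCAN (ENSG00000132692, chromosome 1 from 156641390 to 156659532, plus strand), the brain lectican brevican, had an FPKM of 0.948 without and 1.09 with Bru in U251 (98 and 100 reads), and of 0.718 without and 0.699 with Bru in U87 (64 and 60 reads). Neighbouring libraries had overlapping intervals throughout. Its log2 ratio without a pseudocount was 0.21 in U251 (interval from -0.21 to 0.62) and -0.04 in U87 (interval from -0.57 to 0.49), so that a difference was not detectable. Of its 50-base stretches, 11.5% occur in 2 antisense genes. NCAN (ENSG00000130287, chromosome 19 from 19211973 to 19252233, plus strand), the nervous system lectican neurocan, had 1 read in each U251 library and 0 in each U87 library. All 4 values lie under the floor of 3 reads, and no ratio is given.

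CSPG4 (ENSG00000173546, chromosome 15 from 75674322 to 75712848, minus strand) encodes NG2, a membrane chondroitin sulphate proteoglycan of glial progenitors and pericytes. Without and with Bru it was at an FPKM of 0.138 and 0.111 in U251 (24 and 17 reads), but of 40.1 and 29.2 in U87 (6010 and 4214 reads). It was next to CD44 in abundance in U87 and among the lowest of the genes in U251. In U87 its log2 ratio was -0.46 (interval from -0.52 to -0.40). In U251 the log2 ratio was -0.18, with an interval without a pseudocount from -1.31 to 0.64 that allows a fall past 2-fold. Of its 50-base stretches 14.8% occur in 9 other genes, the one with the most being the pseudogene CSPG4P13.

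HYAL2 and CEMIP were the hyaluronidases with reads enough to compare. HYAL2 (ENSG00000068001, chromosome 3 from 50317790 to 50322906, minus strand) encodes a GPI-anchored enzyme that cuts long hyaluronan. It was at an FPKM of 6.23 without and 3.16 with Bru in U251 (594 and 266 reads), and of 8.90 without and 6.57 with Bru in U87 (731 and 520 reads). In each line Bru was below Control, with intervals apart. Its log2 ratio was -0.96 in U251 and lay just inside the 2-fold cutoff, and its interval without a pseudocount, from -1.19 to -0.77, spanned the cutoff. In U87 it was -0.43 (interval from -0.60 to -0.27), and the difference between the lines was 0.54 (interval from 0.27 to 0.81). HYAL2 shares 509 exon bases, 11.2% of its own, with its neighbour TUSC2 on the same strand. TUSC2 had an FPKM of 15.8 and 15.4 in U251 and of 19.7 and 20.4 in U87.

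CEMIP (ENSG00000103888, chromosome 15 from 80779343 to 80951776, plus strand) encodes a hyaluronidase that works outside the lysosome. Without and with Bru its FPKM was 0.413 and 0.241 in U251 (66 and 34 reads), and 7.73 and 4.66 in U87 (1064 and 618 reads). CEMIP was again lower in Bru in both lines, and here the ratios were close. The log2 ratio without a pseudocount was -0.78 in U251 (interval from -1.42 to -0.16) and -0.73 in U87 (interval from -0.88 to -0.59), a difference of 0.05 (interval from -0.59 to 0.71). In U87 its log2 ratio on FPKM + 0.1 was -0.72, and which of CEMIP and HAS3 was lower there depended on the pseudocount and the scaling. CEMIP shares 224 exon bases with MESD on the other strand, which had 2253 and 1302 reads in U251 and 2079 and 1528 in U87. The part of these shared bases in the CEMIP ratio was not tested. HYAL1 (ENSG00000114378, chromosome 3 from 50299889 to 50312381, minus strand), the lysosomal hyaluronidase, had 3 reads without and 6 with Bru in U251, and 21 and 12 in U87. Its interval included 0 in both lines, from -1.05 to 3.81 in U251 and from -1.91 to 0.34 in U87.

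Together with HYAL3 and CEMIP2, which are not among the 10 genes, the hyaluronidases added up to an FPKM of 16.4 without and 9.06 with Bru in U251 (55.2% of Control), and to 23.7 and 17.0 in U87 (71.9% of Control). HYAL2 held a similar share in every library, from 34.9% to 38.6%. CEMIP2 came next in U251 Control with 34.7%, and CEMIP in U87 Control with 32.6%. In U251 the summed synthases were at a smaller part of Control than the summed hyaluronidases, 16.9% against 55.2%, while in U87 both sums were at 72.4% and 71.9%.

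The untreated lines differed in 3 of the 7 genes by more than 2-fold, where 30.4% of all genes did (14.5% higher and 16.0% lower in U87). These were CSPG4 and CEMIP, which passed the filter through U87 alone, and HAS3, which passed it through U251. The count thus rests on genes that the filter let in by the line where they were high. In U87 Control against U251 Control, CSPG4 had a log2 ratio of 7.40 (8.18 without a pseudocount, interval from 7.61 to 8.83) and CEMIP one of 3.93 (4.23 without a pseudocount, interval from 3.87 to 4.61). CSPG4 was at rank 32 from the highest of the 12949 genes. HAS3 was lower in U87, with a log2 ratio of -3.02 (interval without a pseudocount from -3.59 to -2.82). The other 4 genes lay within 2-fold, HAS2 at -0.48, CD44 at -0.13, VCAN at 0.05 and HYAL2 at 0.51. The sign of the VCAN ratio was not fixed, since it was -0.01 after rescaling to TPM. Below the filter, HYAL1 was higher in U87, with 21 reads against 3, a log2 ratio without a pseudocount of 3.02 (interval from 1.28 to 5.41). This comparison and those of Bru share the Control libraries.

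**Figure D4:**
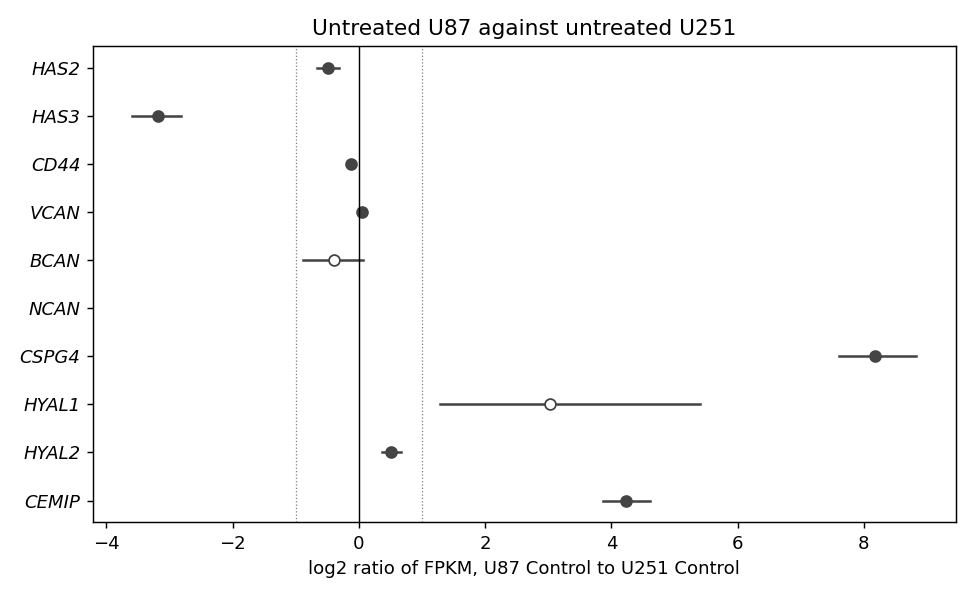
Log2 ratio of FPKM, U87 Control to U251 Control, without a pseudocount, with 95% exact intervals of counting error and dotted lines at 2-fold; open symbols are genes under the filter and NCAN is left out. CSPG4 at 8.18 and CEMIP at 4.23 lie far to the right, HAS3 at -3.19 lies to the left, and CD44 and VCAN lie next to 0.

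The sequences before the RefSeq start sites of HAS3, CSPG4 and CEMIP are shown because these 3 genes differed most between the untreated lines. The RefSeq start site used for HAS3, 69107540, lies inside the annotated gene, which starts at 69105564. The sequence printed for HAS3 is therefore not upstream of the annotated gene. RefSeq promoter windows on GRCh38.p14 were found for 8 of the 10 genes, and those of HAS2 and NCAN were not used here. Each window runs from 250 bases before the start site to 50 bases after it, and the part before the start site is printed 5′ to 3′ on the strand of the gene, without bases in annotated exons of that gene. Capitals mark matches to GGGCGG (SP1) or CACGTG (E-box) on either strand. They are chr16:69107290-69107539 for HAS3, chr15:75712849-75713098 on the minus strand for CSPG4 and chr15:80779120-80779342 for CEMIP.
HAS3: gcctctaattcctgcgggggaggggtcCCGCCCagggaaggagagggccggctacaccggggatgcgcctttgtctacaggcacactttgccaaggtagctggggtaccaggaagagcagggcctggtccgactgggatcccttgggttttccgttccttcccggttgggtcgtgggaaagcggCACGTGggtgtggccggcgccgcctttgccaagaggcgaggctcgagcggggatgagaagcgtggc
CSPG4: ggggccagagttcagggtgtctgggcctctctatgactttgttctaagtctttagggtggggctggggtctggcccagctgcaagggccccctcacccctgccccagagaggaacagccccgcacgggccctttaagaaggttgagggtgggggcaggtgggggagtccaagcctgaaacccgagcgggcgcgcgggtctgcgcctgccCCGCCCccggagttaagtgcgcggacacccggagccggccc
CEMIP: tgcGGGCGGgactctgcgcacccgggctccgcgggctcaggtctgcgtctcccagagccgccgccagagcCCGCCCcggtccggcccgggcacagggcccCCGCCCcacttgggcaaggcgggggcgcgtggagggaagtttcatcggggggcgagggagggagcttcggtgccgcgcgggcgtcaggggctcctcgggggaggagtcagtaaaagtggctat

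The 6 motifs fixed for this comparison were searched on both strands of the whole windows, with overlaps allowed. GGGCGG was found in 7 of the 8 windows and in 45.0% of 35116 RefSeq promoters. The 8 windows were 60.3% to 73.0% G or C, beside a median of 58.7% over all promoters. The shares of promoters with a match were not adjusted for this. The E-box CACGTG was in that of HAS3, 66 bases before the RefSeq start and inside the annotated gene, and in 7.26% of all promoters. TATAAA was in that of CEMIP, 30 bases before the RefSeq start, and in 11.5%. It runs across the annotated start of CEMIP at 80779343, where the printed sequence ends, and so is not marked there. GGAATG (TEAD) was found in that of HYAL2 and in 14.0% of all promoters. TGACNNNGC, the core of the antioxidant response element, was found in that of CD44 and in 13.3%. TGACTCA (AP-1) was in none of the 8 windows and in 4.95% of all promoters. A match is a run of letters and does not show binding.

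The other genes of the pathway were read from 12 lists with 137 genes, of which 83 passed the filter. In U251, 15 of the 83 fell past 2-fold and 0 rose, beside 5.44% and 3.36% of all genes. PTPRZ1, HAPLN3 and HPSE among them passed the filter through U251 Control, and entry through a high Control favours falls. For 4 of the 15, namely CEMIP2, CHST14, HPSE and SRGN, the interval without a pseudocount reached inside 2-fold. In U87, 0 of the 83 passed 2-fold in either direction, beside 3.34% of all genes. Several of the 83 had almost no reads in U87 and could not have passed there, such as PTPRZ1, GPC4, ADAMTS15 and HS6ST2 with 0 or 1 read per library. The median log2 ratio of the 83 genes was -0.54 in U251 and -0.22 in U87, where that of all genes was -0.03 and -0.04. Ratios below 0 were found for 73 of them in U251 and 68 in U87, beside 52.1% and 56.7% of all genes.

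The first list joined sugar nucleotide supply with HAS1. Of its 8 measured genes, HAS1 included, 0 passed 2-fold in either line, and the list medians were -0.08 and -0.24. HAS1 had too few reads in U251 for a ratio to be read there. UGP2, which makes UDP-glucose, had a log2 ratio of -0.57 for U251 and of -0.36 for U87. GFPT1, the entry enzyme of the hexosamine pathway, had ratios of -0.37 and -0.25. UAP1, the last enzyme before UDP-N-acetylglucosamine, had an FPKM of 56.3 and 52.8 in U251 and of 9.89 and 8.73 in U87.

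Of 5 measured genes of hyaluronan degradation 1 fell past 2-fold in U251, beside 5.44% of all genes. CEMIP2, a cell surface hyaluronidase, had ratios of -1.04 and -0.67, and its interval in U251, from -1.23 to -0.92, spanned the cutoff. The lysosomal GUSB had ratios of -0.91 and -0.34. Of the other hyaluronan receptors, TLR4 had ratios of -0.69 and -0.67 and LAYN, or layilin, of -0.06 and -0.33. HMMR, a receptor that is also a mitotic spindle protein, had ratios of 0.06 and 0.17. ICAM1, an adhesion molecule, had ratios of 0.58 in U251 (interval without a pseudocount from 0.14 to 1.16) and -0.29 in U87. Of these 4 measured receptors 0 passed 2-fold.

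Of 7 genes that link CD44 to actin or shed it, 1 fell past 2-fold in U251, beside 5.44% of all genes. MMP14, a membrane metalloproteinase that can shed CD44, fell from an FPKM of 45.5 to 16.3 in U251 and was at 134 and 107 in U87, log2 ratios of -1.48 and -0.33. The sheddase ADAM10 had ratios of -0.93 and -0.26. Of hyaluronan-binding and link proteins only 3 of 15 were measured. HAPLN3, a link protein, fell from 157 to 20 reads in U251, a log2 ratio of -2.45, and had 73 and 53 reads in U87, a ratio of -0.37. C1QBP, which resides mostly in mitochondria, had ratios of 0.60 and 0.18. Among partners and cleaving enzymes of lecticans 1 of 6 fell in U251, beside the same share of all genes. FBLN1, or fibulin-1, had a ratio of -1.51 there and 4 reads in each U87 library. Tenascin-C (TNC) had ratios of -0.67 and -0.41.

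Heparan sulphate proteoglycans of the membrane held the most genes past 2-fold. Of 8 measured genes 4 fell in U251, where 5.44% of all genes fell, with a list median of -1.10 in U251 and of -0.23 in U87. The counts per list are small, and no set test was run. Syndecan-3 (SDC3) had log2 ratios of -1.44 and -0.80, glypican-1 (GPC1) of -1.33 and -0.68, and SDC2 of -1.47 and -0.44. GPC4 had a ratio of -1.66 in U251 and 1 and 0 reads in U87. Of 6 other proteoglycans 2 were past 2-fold in U251, PTPRZ1 and SRGN, but SRGN passed the filter through U87. PTPRZ1, a receptor phosphatase that carries chondroitin sulphate, fell from 919 to 166 reads in U251, a ratio of -2.17, and had 0 and 1 read in U87. SRGN, or serglycin, had 10 and 0 reads in U251, with an upper limit of the log2 ratio of -0.99, just inside 2-fold, and had a ratio of -0.70 in U87. Of the 10 small leucine-rich proteoglycans such as decorin 0 passed the filter, and biglycan (BGN) was the highest of them at an FPKM of 2.06 in U251 Control.

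Among the enzymes of the sulphated chains, ratios below 0 were found for 16 of 18 genes of chondroitin synthesis in U251 and 15 in U87. For heparan sulphate synthesis and editing they were found for 11 of 11 in U251 and 9 in U87. The shares of all genes below 0 were 52.1% and 56.7%. Of the 18 chondroitin genes 2 fell past 2-fold in U251, beside 5.44% of all genes. CHPF, a chondroitin polymerising factor, had ratios of -1.62 and -0.80, and CHST14, a dermatan sulphotransferase, of -1.05 and -0.40. The interval of CHST14 in U251, from -1.22 to -0.91, spanned the cutoff. Of the 11 heparan sulphate genes 3 fell, beside the same share, namely HS6ST1 (-1.21 and -0.38), EXTL3 (-1.13 and -0.58) and HPSE (-1.06 and -0.03). HPSE encodes heparanase, which cuts heparan sulphate, and its interval in U251, from -1.42 to -0.81, also spanned the cutoff. Of 7 transport genes 0 passed 2-fold, with SLC35B2, a carrier of the sulphate donor, at -0.86 and -0.58 and SLC35D1, a carrier of nucleotide sugars, at -0.91 and -0.30.

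**Figure D5:**
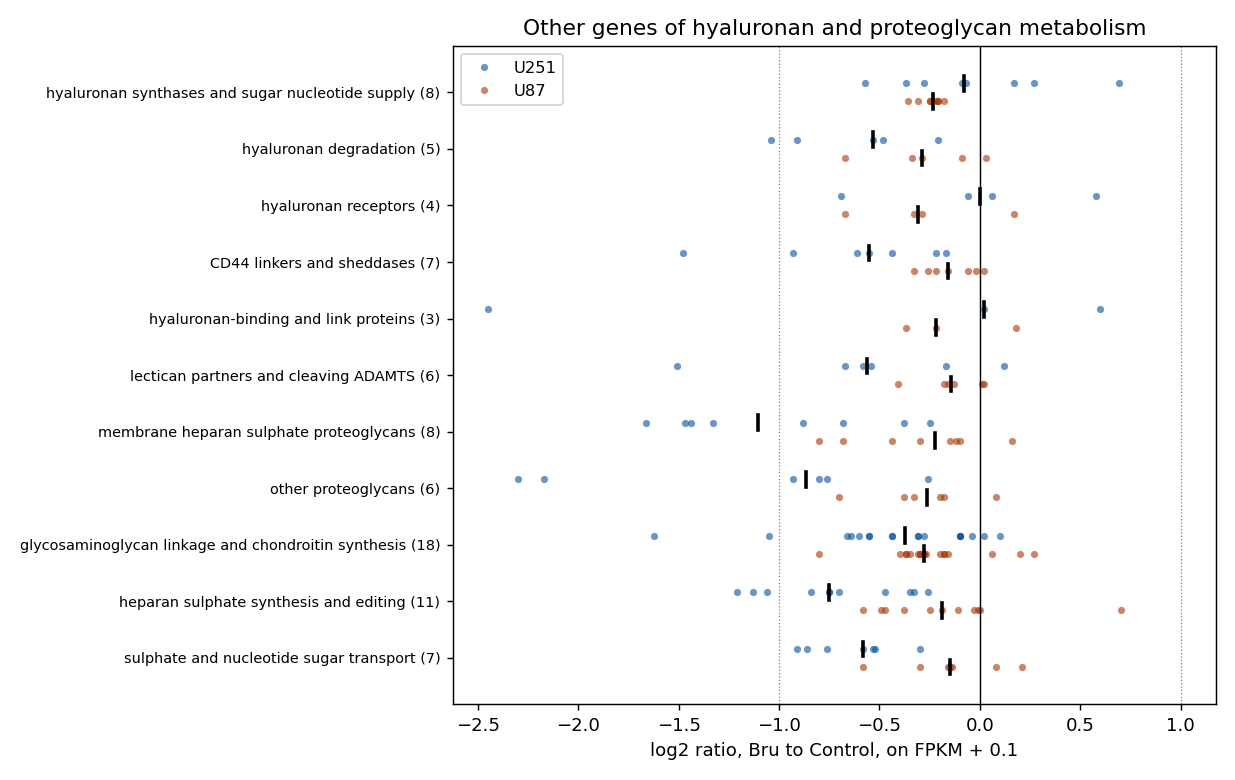
Log2 ratio, Bru to Control on FPKM + 0.1, of the 83 listed genes that passed the filter, by list, with 1 point per gene and line, black bars at the list medians, dotted lines at 2-fold and the number of genes in brackets. The points of U251 reach -2.45, while those of U87 lie between -0.80 and 0.70.

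The protein-coding genes whose log2 levels over the 4 libraries, centred on their mean, lay nearest to HAS2 were C1QTNF1 and GDF15, at Euclidean distances of 0.807 and 0.822. C1QTNF1, a secreted protein of the C1q and TNF family, had an FPKM of 10.8 and 2.01 in U251 and of 9.95 and 5.94 in U87, without and with Bru. GDF15, a stress cytokine, had ratios of -3.34 and 0.31, so that it differed from HAS2 in U87. For CD44 the nearest were CNTRL, DPY19L4 and LMBR1, at 0.0240 to 0.0364, and for VCAN they were OCIAD1, MTA3 and MON2, at 0.0250 to 0.0354. HAS2 thus had no gene as near to it as CD44 and VCAN had. These distances are not scaled to the size of the changes, which were larger in HAS2. They therefore do not show that its pattern was more distinct. With 4 libraries and 10850 genes compared, such likeness is a description only.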

How the data were processed

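RNA of U251 and U87, each as Control and after 48 h of Bru, was made into 4 libraries with a poly(A) or other selection not given in the sources used here, and read as paired ends. The authors deposited FPKM per gene with gene lengths in bases. The submitters' processing notes name HISAT2 2.0.5, StringTie 1.3.3b, featureCounts 1.5.0-p3 and the build hg18, but 58690 of 58735 genes have the coordinates of GENCODE release 29 on GRCh38. FPKM times length was divided by what 1 read is worth in each library to recover reads, with a largest deviation of 5.1e-05 reads, and the FPKM imply library sizes from 17406238 to 20974002. Log2 ratios were computed after adding 0.1, and genes averaging an FPKM under 1 were left out of counts. With 1 library per condition no test between conditions and no p-value was computed. Ratio intervals are Clopper-Pearson intervals of the share of reads, and differences between lines are conditional odds ratios (SciPy 1.17.1). The recovery of reads and the ratio intervals were tested on simulated Poisson counts, which hold no variation between libraries beyond counting. Interval cover was checked there only for genes with many reads. The intervals of the differences between lines were not tested in this way. A floor of 3 reads marks the least that the depth shows, an FPKM of 0.143 to 0.172 for 1 kilobase. The 10 genes, the lists and the motifs were chosen with earlier results of these data known. Named beside the 10 genes are the 2 genes of each list with the largest mean ratio, the 3 nearest genes of HAS2, CD44 and VCAN (1 is not reported here), and HAS1, HAS2-AS1, UAP1, HYAL3, HMMR, ICAM1, ADAMTS15, HS6ST2, MESD, TUSC2, SDC2, GPC4, HPSE and BGN, which were added after their values were seen. Protein sequences were not used here. Alternatives were 2 pseudocounts, 3 filters and 5 scalings.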

Additional observations from a re-analysis of the deposited data

Results flagged for a closer look

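The response to Bru differed between U251 and U87 beyond counting error in 5 of the 7 genes that passed the filter, each lower in U251 than in U87. The difference of the log2 ratios, U87 minus U251, was 3.03 for HAS2, 1.07 for HAS3, 0.54 for HYAL2, 0.34 for CD44 and 0.18 for VCAN. HAS2 and HAS3 differed by more than 2-fold, where 8.49% of all genes did. Each exact conditional interval left out 0, and these intervals compare 4 single libraries. The share of all genes whose interval left out 0 was not computed, so the count of 5 has no background beside it. The difference of VCAN lay between 0.13 and 0.19 over the alternatives and that of CD44 between 0.30 and 0.35. The intervals of CEMIP and CSPG4 included 0.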

How the results depend on the processing

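No paired analysis was possible because each condition had 1 library and the labels carry no replicate numbers. None of the log2 ratios beyond 2-fold changed sign under the 10 alternatives. A pseudocount or a filter cannot change the sign of a ratio between libraries, and the scalings moved such ratios too little to reach 0. The kept signs are therefore no check of these ratios. With a pseudocount of 1, the ratio of HAS2 in U251 was -2.45, that of HAS3 was -1.43, and CSPG4 and CEMIP in U87 Control against U251 Control were at 5.18 and 2.63. The median ratio of the genes in U251, -0.59, was -0.29 without a filter, and with a minimum of 5 the medians were -0.29 in U251 and -0.25 in U87. A minimum mean FPKM of 5 leaves 4 of the 10 genes, so that the counts past 2-fold became 0 in U251, 1 between the untreated lines and 0 for the difference of the response. The counts of all genes past 2-fold, 1140 in U251, 432 in U87, 3942 between the untreated lines and 1099 for the difference, moved with the number of genes let in. They were 4963, 4335, 10540 and 7419 without a filter, 3727, 2801, 8845 and 4793 with a minimum of 0.1, and 473, 83, 1721 and 299 with a minimum of 5. With a pseudocount of 1 they were 616 in U251, 190 in U87 and 539 for the difference. The signs of the VCAN ratio between the untreated lines, of the BCAN ratio in U87 and of the CEMIP difference, each near 0, changed. Depth limits HYAL1, BCAN and NCAN, and CSPG4 and CEMIP in U251.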

Other observations

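On the strand opposite to BCAN, the antisense gene AL365181.3 had an FPKM of 6.79 without and 9.80 with Bru in U251 (459 and 585 reads), and of 1.89 and 3.14 in U87 (110 and 176 reads). A further antisense gene, AL590666.2, had 69, 100, 10 and 21 reads in the same order. Both had a higher FPKM in Bru in each line and a higher FPKM than BCAN itself in every library. In U87 Control this was by little for AL590666.2, at 0.730 against 0.718 for BCAN. They share 328 and 354 exon bases with BCAN, and without strand these bases cannot be assigned. Both were named after their values were seen.

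HYAL3 and NAA80 share 248 exon bases on the same strand, 12.2% of those of HYAL3. Without and with Bru, HYAL3 had an FPKM of 4.02 and 2.84 in U251 and of 4.55 and 4.27 in U87. NAA80 had an FPKM of 3.64 and 4.14 in U251, from 167 and 168 reads, and 174 and 135 reads in U87.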
